A study of Homo sapiens with 18 samples.

Results

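The MHC class I system was described here through 9 genes in 3 Burkitt lymphoma cell lines with and without an shRNA against FOXO3. The genes were taken by symbol from the expression tables and are the class I heavy chains HLA-B, HLA-C, HLA-E and HLA-F, the light chain B2M, the peptide transporter TAP1 and TAP2, the loading chaperone TAPBP and the regulator NLRC5. All 9 were found in each table, out of 17561 genes listed in at least 1 table. Burkitt lymphoma is a B cell cancer driven by MYC, and of the established lines used, Namalwa and Jiyoye carry Epstein-Barr virus while BL-41 does not. A lentivirus carrying TagRFP delivered either the FOXO3 shRNA or a scrambled one under the U6 promoter, and transduced cells were sorted at day 4. Each of the 6 groups, FOXO3 shRNA and scrambled shRNA in BL-41, Namalwa and Jiyoye, held 3 messenger RNA libraries, 18 in all. The labels speak of triplicates without saying that they were separate cultures, so p-values measure only the spread between libraries, which may be technical.

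Class I molecules show peptides from inside the cell to CD8+ T cells and to natural killer cells. A heavy chain pairs with beta-2 microglobulin, the B2M product, in the endoplasmic reticulum. TAP1 and TAP2 together pump peptides in, and tapasin, the TAPBP product, bridges the transporter to empty heavy chains and helps select the peptide. NLRC5 moves to the nucleus, joins the RFX, CREB/ATF and NF-Y factors on class I promoters and drives their transcription, and interferon and NF-kB signals raise the same genes. Loss of class I display is a known route of immune escape in B cell lymphoma.

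The deposited tables give 1 normalized value per arm and no value per library. The ratio of the arms equals the deposited fold change, and no SD can be given. Every fold change sets FOXO3 shRNA over scrambled shRNA in log2 units, adjusted p-values are those of the authors' DESeq2 test, and standard errors (SE) were recovered from the fold change and its p-value. A gene was called at an adjusted p under 0.05. The arm values summed to between 17065755 and 18459745 in the 6 groups, which is a normalized sum and not a read total. In the authors' deposited table the FOXO3 transcript was at 544.7 with FOXO3 shRNA and 944.5 with scrambled shRNA in BL-41, and it fell by 0.79. FOXO3 in Namalwa was at 398.4 with FOXO3 shRNA and 850.5 with scrambled shRNA in the authors' deposited table, and it fell by 1.09. FOXO3 in Jiyoye was at 384 with FOXO3 shRNA and 471.2 with scrambled shRNA in the authors' deposited table and was not called (log2 fold change -0.30, adjusted p = 0.187, DESeq2), so the knockdown is not established by this test there. The responses of Jiyoye below are therefore those of the library group labelled FOXO3 shRNA. All 8 B cell markers examined were measured in each line, with summed arm values of 48428, 37341 and 12763 with FOXO3 shRNA and 57724, 36412 and 13401 with scrambled shRNA in BL-41, Namalwa and Jiyoye. The mean reached 100 for 7 of the 8 in each line. EBF1 in Jiyoye was at 2.82 with FOXO3 shRNA and 2.49 with scrambled shRNA. CR2 was at 23.5 with FOXO3 shRNA and 34.2 with scrambled shRNA in BL-41, and at 23.4 and 23.8 in Namalwa. Of the 8 markers 3 fell in BL-41, against 14.2% of all genes, and 2 rose in Jiyoye, against 8.69%. Among genes whose mean reached 100, 20.7% fell in BL-41 and 12.7% rose in Jiyoye. In Namalwa 0 of the 8 were called (1 higher and 1 lower at an unadjusted p under 0.05, DESeq2).

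The class I genes are spread over 3 chromosomes, with 7 of the 9 in the major histocompatibility complex on chromosome 6. On GRCh38.p14, HLA-F lies at chr6:29723434-29738532, HLA-E at chr6:30489509-30494194, HLA-C at chr6:31268749-31272092 and HLA-B at chr6:31353875-31357179. TAP2 lies at chr6:32821831-32838739, TAP1 at chr6:32845209-32853704 and TAPBP at chr6:33299694-33314078. B2M lies at chr15:44711517-44718145 and NLRC5 at chr16:56989557-57083520. TAP1 and the immunoproteasome gene PSMB9 are read in opposite directions from starts 488 bases apart.

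Promoter sequences are shown because NLRC5, interferon regulatory factors and NF-kB act on class I genes through short elements there. RefSeq windows of 300 bases, from 250 bases before to 50 after the start, were found for 7 of the 9 genes. Printed are the classical heavy chains HLA-B, which was called in BL-41 and Namalwa, and HLA-C, which was called in no line, the light chain, and the TAP1 and TAPBP genes that rose in Jiyoye. The windows are chr6:31357130-31357429 (minus strand) for HLA-B, chr6:31272043-31272342 (minus strand) for HLA-C, chr15:44711267-44711566 (plus strand) for B2M, chr6:32853655-32853954 (minus strand) for TAP1 and chr6:33314029-33314328 (minus strand) for TAPBP, all on GRCh38.p14 and printed on the strand of the gene. Capitals mark matches on either strand to the NF-kB pattern GGGNNTTNC, the interferon regulatory factor core AANNGAAA, the CRE-like part of the X2 box TGACG and the Y box CCAAT.
HLA-B: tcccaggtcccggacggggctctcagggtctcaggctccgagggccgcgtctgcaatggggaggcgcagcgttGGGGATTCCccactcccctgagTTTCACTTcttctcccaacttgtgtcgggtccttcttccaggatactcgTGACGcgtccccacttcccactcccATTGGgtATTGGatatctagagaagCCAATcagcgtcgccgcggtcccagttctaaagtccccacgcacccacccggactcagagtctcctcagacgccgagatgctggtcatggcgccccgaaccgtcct
HLA-C: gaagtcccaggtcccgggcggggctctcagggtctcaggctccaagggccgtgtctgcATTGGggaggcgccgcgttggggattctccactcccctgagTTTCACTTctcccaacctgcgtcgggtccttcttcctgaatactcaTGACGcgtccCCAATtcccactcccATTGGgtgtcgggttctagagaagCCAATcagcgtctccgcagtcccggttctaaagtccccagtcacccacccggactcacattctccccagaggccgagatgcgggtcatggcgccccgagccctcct
B2M: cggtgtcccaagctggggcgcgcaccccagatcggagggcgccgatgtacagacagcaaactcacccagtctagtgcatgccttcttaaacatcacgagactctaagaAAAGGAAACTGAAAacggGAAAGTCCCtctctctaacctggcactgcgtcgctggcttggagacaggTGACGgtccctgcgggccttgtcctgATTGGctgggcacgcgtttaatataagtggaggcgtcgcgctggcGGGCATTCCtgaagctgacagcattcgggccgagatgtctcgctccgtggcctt
TAP1: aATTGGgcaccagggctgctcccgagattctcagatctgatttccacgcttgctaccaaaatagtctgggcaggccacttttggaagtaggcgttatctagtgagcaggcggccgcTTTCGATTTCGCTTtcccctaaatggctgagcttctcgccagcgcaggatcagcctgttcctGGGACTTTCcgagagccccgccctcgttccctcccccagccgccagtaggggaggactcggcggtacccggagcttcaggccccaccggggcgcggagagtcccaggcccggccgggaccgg
TAPBP: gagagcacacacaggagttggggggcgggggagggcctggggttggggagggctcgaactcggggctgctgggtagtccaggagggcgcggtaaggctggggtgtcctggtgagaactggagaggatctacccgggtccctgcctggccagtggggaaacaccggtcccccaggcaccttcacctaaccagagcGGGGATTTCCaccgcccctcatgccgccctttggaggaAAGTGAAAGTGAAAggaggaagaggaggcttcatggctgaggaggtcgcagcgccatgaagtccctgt

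The HLA-B and HLA-C windows shared 269 identical bases over 304 aligned columns (88.5%). HLA-B held the NF-kB pattern with its first base 177 bases before the start, whereas HLA-C had no match to it in the window. Both held the interferon regulatory factor core, the CRE-like element and Y boxes in that order towards the start, and HLA-C had a further Y box upstream of its core. TAPBP had neither a CRE-like element nor a Y box in its window and had 2 copies of the interferon regulatory factor core, which overlap each other, and 2 overlapping frames of the NF-kB pattern. Paired cores that overlap were also found in B2M, TAP1 and TAP2. The interferon regulatory factor core was in 7 of 7 windows and in 22.9% of the 34796 promoter windows of RefSeq. The NF-kB pattern was in 4 of 7 against 16.2% of all windows, the CRE-like element in 4 of 7 against 24.5%, and the Y box in 5 of 7 against 34.6%. The FOXO pattern GTAAACA was in 0 of 7 windows and in 3.42% of all windows. A match is a run of letters and not a measured binding site, and its absence covers this window alone.

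**Figure D1:**
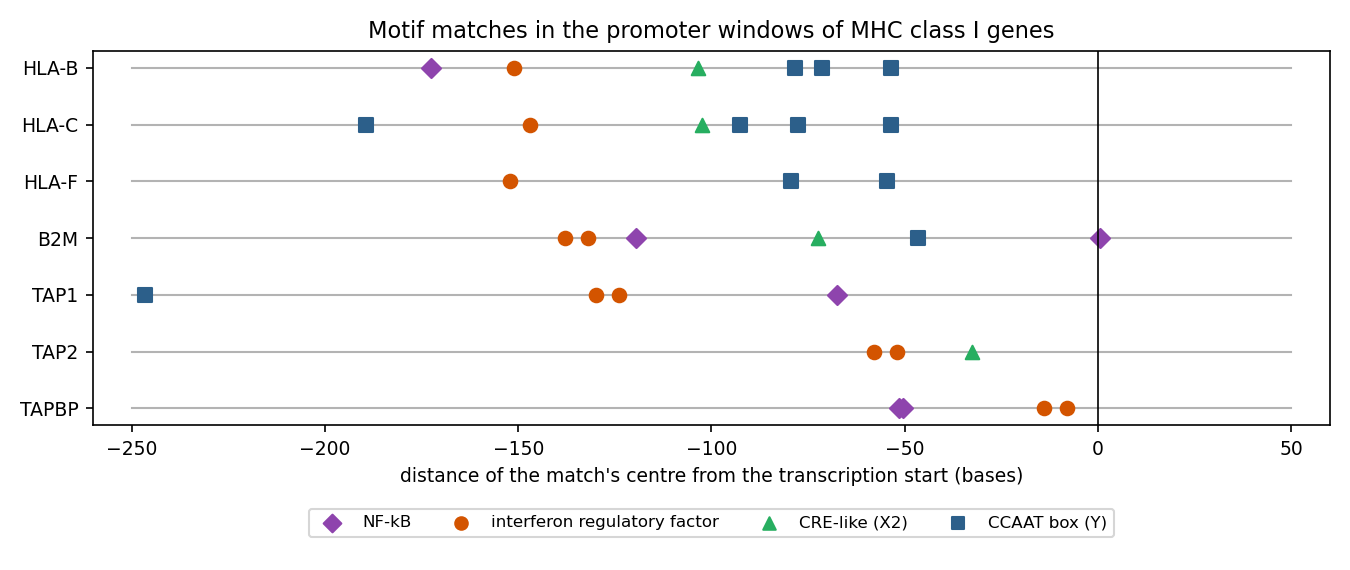
Position of each motif match (symbol, centre of the match) in bases from the transcription start, for the 7 class I genes with a promoter window (grey line, 250 bases before to 50 after). HLA-B, HLA-C and HLA-F have Y boxes at similar distances, while the cores of the interferon regulatory factors lie closer to the start in TAP2 and TAPBP.

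Before any response is considered, the 3 lines differed in how much class I message they held. Each table was normalized on its own, so levels set across lines are a description. Per kilobase of transcript, B2M with scrambled shRNA was at 19932 for BL-41, 29005 for Namalwa and 56357 for Jiyoye in the authors' deposited table. B2M was the highest of the 9 genes in all 6 groups, followed by HLA-B and HLA-C. HLA-B per kilobase was at 4601 with FOXO3 shRNA and 7580 with scrambled shRNA in BL-41, the only line in which the order of HLA-B and HLA-C changed between arms (HLA-C 5481 with FOXO3 shRNA and 6250 with scrambled shRNA, the authors' deposited table). In Jiyoye with scrambled shRNA, HLA-B was 3.9 times and HLA-C 3.69 times the BL-41 level per kilobase. These chains were 2.83 times and 3.75 times the Namalwa level. Jiyoye thus stood above both other lines for the classical chains, and also for HLA-E, HLA-F, B2M and TAP1.

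The order was different for the regulator and part of the loading machinery. NLRC5 with scrambled shRNA was highest in Namalwa, at 397.8 per kilobase, against 217.6 in Jiyoye and 133 in BL-41 in the authors' deposited table. TAP2 with scrambled shRNA was lowest in Jiyoye, at 351.1 per kilobase, against 468.1 in Namalwa and 525.7 in BL-41 in the authors' deposited table. The isoform-weighted length of TAP2 also differed, at 4416 bases in Jiyoye, 5732 in Namalwa and 4877 in BL-41. HLA-F, a non-classical chain that also binds natural killer cell receptors, varied most. Its arm value was 4.08 with FOXO3 shRNA and 3.88 with scrambled shRNA in Namalwa in the authors' deposited table, whereas it was 143.4 with FOXO3 shRNA and 207.9 with scrambled shRNA in BL-41, and 1746 with FOXO3 shRNA and 1896 with scrambled shRNA in Jiyoye. Per kilobase and with scrambled shRNA, HLA-F in BL-41 was 61.8 times and in Jiyoye 593 times the level in Namalwa. Of the 10614 genes whose mean reached 100 in Namalwa or Jiyoye, 1.75% lay as far from the median ratio of those lines as HLA-F did. HLA genes are alike in sequence and differ between people, and the reads were mapped to the reference, so reads may be shared between chains or lost. Levels of the heavy chains across lines and between chains are therefore uncertain.

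**Figure D2:**
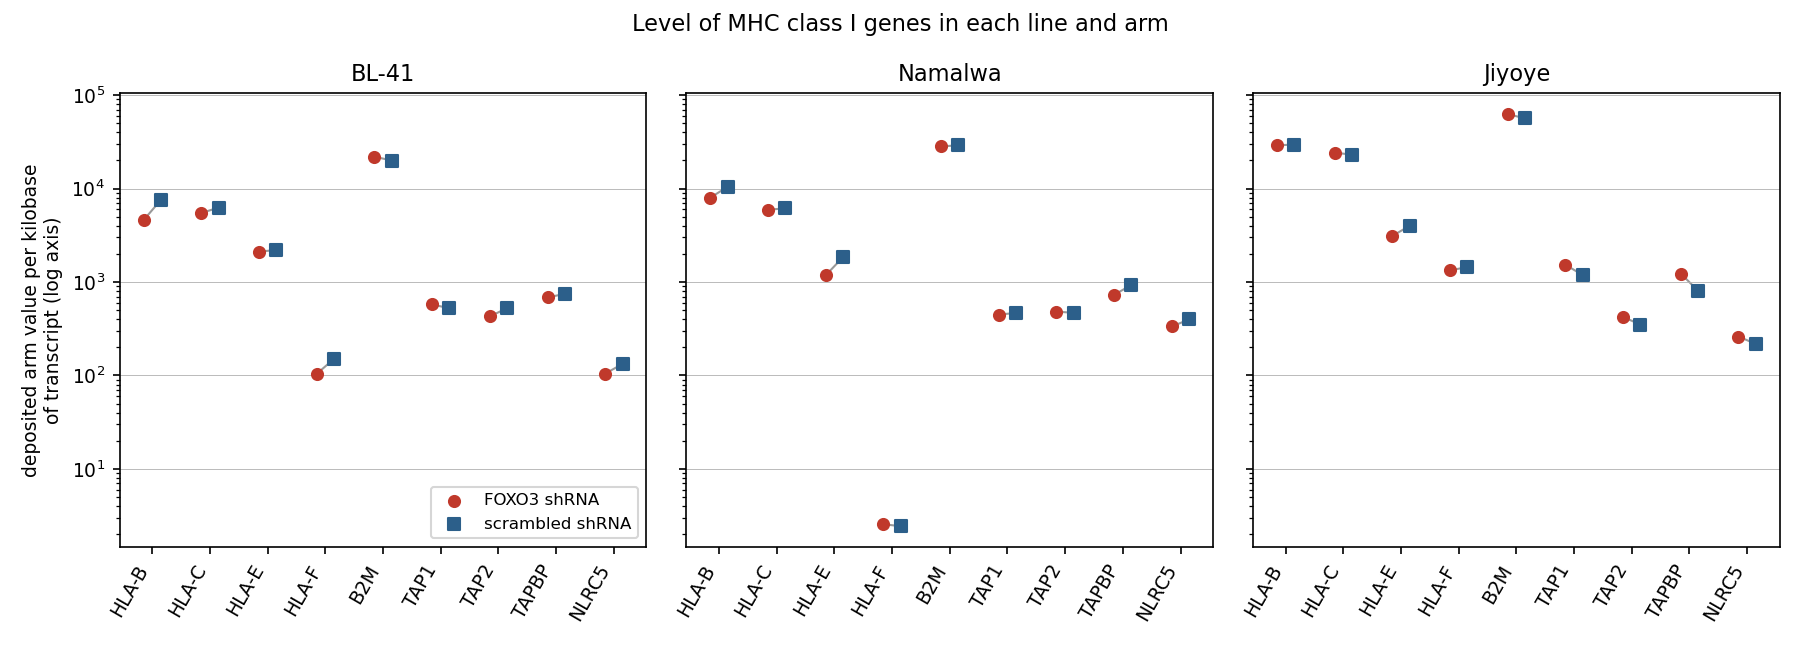
Deposited arm values per kilobase of transcript on a log axis for the 9 class I genes in BL-41, Namalwa and Jiyoye (1 value per arm: red circles FOXO3 shRNA, blue squares scrambled shRNA). B2M is highest in every panel, and HLA-F in Namalwa, at 2.56 with FOXO3 shRNA and 2.44 with scrambled shRNA, lies far below all other values.

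Within lines, the class I genes called with FOXO3 shRNA were lower in BL-41 and Namalwa and higher in Jiyoye. In BL-41, HLA-B, TAP2 and NLRC5 fell, 3 of 9 against 14.2% of the 16001 genes tested, and 0 rose (0 also at an unadjusted p under 0.05) against 14.5%. In Namalwa, HLA-B, HLA-E and TAPBP fell, 3 of 9 against 3.81% of 15365 genes, and 0 rose (0 also at an unadjusted p under 0.05) against 2.6%. In Jiyoye, TAP1 and TAPBP rose, 2 of 9 against 8.69% of 16787 genes, and 0 fell (1 at an unadjusted p under 0.05) against 8.7%. Well-expressed genes were called more often. Among genes whose mean reached 100, the share that fell was 20.7% in BL-41 and 5.76% in Namalwa, and the share that rose was 12.7% in Jiyoye. The median fold change of the 9 genes was -0.19 for BL-41, -0.06 for Namalwa and 0.15 for Jiyoye, beside 0.02, -0.0011 and 0.01 over all genes. All of these changes were smaller than 1 in log2 units, the lowest being -0.72 (HLA-B in BL-41) and the highest 0.62 (TAPBP in Jiyoye).

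HLA-B, a classical heavy chain that presents to CD8+ T cells, fell in BL-41 and Namalwa. In BL-41 it was at 7471 with FOXO3 shRNA and 12310 with scrambled shRNA in the authors' deposited table, a log2 fold change of -0.72 (SE 0.16, adjusted p = 0.000119, DESeq2). In Namalwa HLA-B was at 12963 with FOXO3 shRNA and 16962 with scrambled shRNA in the authors' deposited table, a log2 fold change of -0.39 (SE 0.11, adjusted p = 0.00796, DESeq2). The difference between these falls, BL-41 minus Namalwa, was -0.33 with a 95% interval from -0.71 to 0.05 and was not called (adjusted p = 0.361). In Jiyoye HLA-B was at 47063 with FOXO3 shRNA and 48044 with scrambled shRNA in the authors' deposited table, a log2 fold change of -0.03 with a 95% interval from -0.24 to 0.18. BL-41 minus Jiyoye was -0.69 for HLA-B (SE 0.20, adjusted p = 0.0133, two-sided z test with Benjamini-Hochberg adjustment over all genes), which is the test used for each difference between lines. In bulk RNA, fewer cells with a transcript and less of it per cell cannot be told apart.

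HLA-C, the other classical chain measured here, was called in no line. Its values were 8693 with FOXO3 shRNA and 9913 with scrambled shRNA in BL-41, -0.19 in log2 units in the authors' deposited table with a 95% interval from -0.46 to 0.08. HLA-C in Namalwa was at 9412 with FOXO3 shRNA and 9741 with scrambled shRNA, -0.05 in log2 units in the authors' deposited table (interval -0.32 to 0.22). HLA-C in Jiyoye was at 38415 with FOXO3 shRNA and 36541 with scrambled shRNA, 0.07 in log2 units in the authors' deposited table (interval -0.13 to 0.28). The intervals leave room for changes of modest size in either direction, and HLA-B against HLA-C within a line was not tested.

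HLA-E is a non-classical chain that shows signal peptides of other heavy chains to the CD94/NKG2A receptor of natural killer cells. In Namalwa it was at 3156 with FOXO3 shRNA and 4946 with scrambled shRNA in the authors' deposited table, a log2 fold change of -0.65 (SE 0.13, adjusted p = 2.62e-05, DESeq2), the largest fall among the 9 genes in that line. In BL-41 HLA-E was at 5667 with FOXO3 shRNA and 5890 with scrambled shRNA in the authors' deposited table, a log2 fold change of -0.06. The BL-41 response of HLA-E minus that of Namalwa was 0.59 (SE 0.17), a called difference (z test, adjusted p = 0.0175). The lowest fold change was in Namalwa for HLA-E and in BL-41 for HLA-B, though for HLA-B the difference between these lines was not called. HLA-E in Jiyoye was at 8334 with FOXO3 shRNA and 10694 with scrambled shRNA in the authors' deposited table, a log2 fold change of -0.36 that missed the threshold (adjusted p = 0.0729, DESeq2). HLA-F was not called in any line. The authors' deposited table gives it a log2 fold change of -0.54 for BL-41 (adjusted p = 0.0852, DESeq2), 0.07 for Namalwa (SE 0.40) and -0.12 for Jiyoye.

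B2M, the light chain needed by every class I heavy chain, was called in no line either. With FOXO3 shRNA it was at 21654, 27876 and 61773 in BL-41, Namalwa and Jiyoye in the authors' deposited table, against 19673, 28628 and 55624 with scrambled shRNA. The log2 fold changes were 0.14 (95% interval -0.13 to 0.41), -0.04 (-0.20 to 0.12) and 0.15 (-0.12 to 0.42) in the authors' deposited table. No pair of lines differed for B2M by the z test (adjusted p of at least 0.627). Per kilobase, HLA-B was 21% of B2M with FOXO3 shRNA and 38% with scrambled shRNA in BL-41. In Namalwa HLA-B was 28.3% of B2M with FOXO3 shRNA and 36% with scrambled shRNA, and in Jiyoye 46.3% with FOXO3 shRNA and 52.5% with scrambled shRNA. Neither gene was called in Jiyoye, and HLA-B against B2M within a line was not tested.

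TAPBP codes for tapasin and was the gene whose response differed most between lines. In Jiyoye it was at 4628 with FOXO3 shRNA and 3021 with scrambled shRNA in the authors' deposited table, a log2 fold change of 0.62 (SE 0.11, adjusted p = 2.74e-06, DESeq2). In Namalwa TAPBP was at 2697 with FOXO3 shRNA and 3441 with scrambled shRNA in the authors' deposited table, a log2 fold change of -0.35 (SE 0.10, adjusted p = 0.0121, DESeq2). TAPBP thus rose in Jiyoye and fell in Namalwa. In BL-41 it was at 2561 with FOXO3 shRNA and 2790 with scrambled shRNA in the authors' deposited table, a log2 fold change of -0.12 that was not called. Namalwa minus Jiyoye was -0.97 (SE 0.15, adjusted p = 2.01e-07) and BL-41 minus Jiyoye was -0.74 (SE 0.16, adjusted p = 0.000485). BL-41 minus Namalwa was 0.23 with an interval from -0.07 to 0.53 and was not called.

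The transporter subunits TAP1 and TAP2 were called in different lines, and TAP1 against TAP2 within a line was not tested. TAP1 rose in Jiyoye, at 4201 with FOXO3 shRNA and 3252 with scrambled shRNA in the authors' deposited table, a log2 fold change of 0.37 (SE 0.11, adjusted p = 0.0107, DESeq2). It was not called in BL-41 (0.14, interval -0.08 to 0.36) or Namalwa (-0.06, interval -0.31 to 0.20) in the authors' deposited table, and no pair of lines passed the test of the difference for TAP1 (adjusted p of at least 0.196). TAP2 fell in BL-41, at 2089 with FOXO3 shRNA and 2564 with scrambled shRNA in the authors' deposited table, a log2 fold change of -0.30 (SE 0.11, adjusted p = 0.0246, DESeq2). In Jiyoye TAP2 was at 1864 with FOXO3 shRNA and 1550 with scrambled shRNA in the authors' deposited table, a log2 fold change of 0.27 that was not called (adjusted p = 0.207, DESeq2). BL-41 minus Jiyoye was -0.56 for TAP2 (SE 0.18), a called difference (z test, adjusted p = 0.0319). In Namalwa TAP2 was at 0.04 in log2 units in the authors' deposited table (interval -0.28 to 0.37).

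NLRC5, the class I transactivator, had the signs of TAPBP and of HLA-C in the 3 lines, and in no line were NLRC5 and TAPBP both called. In BL-41 it was at 707 with FOXO3 shRNA and 898.8 with scrambled shRNA in the authors' deposited table, a log2 fold change of -0.35 (SE 0.14) that passed the threshold by a small margin (adjusted p = 0.0479, DESeq2). In Namalwa NLRC5 was at 2263 with FOXO3 shRNA and 2689 with scrambled shRNA in the authors' deposited table, a log2 fold change of -0.25 that was not called (adjusted p = 0.101, DESeq2). In Jiyoye NLRC5 was at 1762 with FOXO3 shRNA and 1470 with scrambled shRNA in the authors' deposited table, a log2 fold change of 0.26 that was not called (adjusted p = 0.123, DESeq2). Although called on its own only in BL-41, NLRC5 differed between lines by test. BL-41 minus Jiyoye was -0.61 (SE 0.18, adjusted p = 0.0239) and Namalwa minus Jiyoye was -0.51 (SE 0.15, adjusted p = 0.0373).

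**Figure D3:**
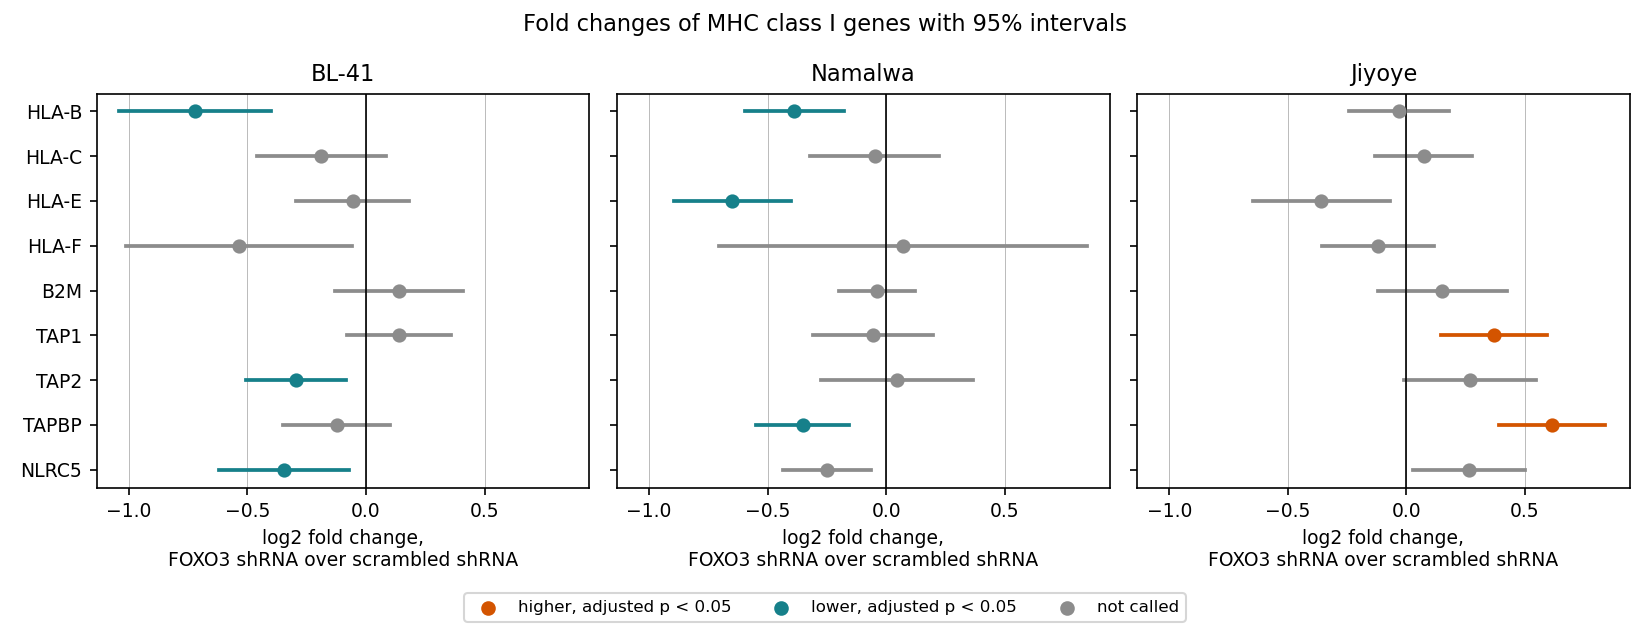
Log2 fold change of FOXO3 shRNA over scrambled shRNA (dot) with its 95% interval from the recovered SE (line) for the 9 class I genes in each line, coloured by the DESeq2 call. HLA-B, TAP2 and NLRC5 lie below 0 in BL-41, HLA-B, HLA-E and TAPBP in Namalwa, and TAP1 and TAPBP lie above 0 in Jiyoye.

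Set against all genes, the class I responses differed between lines as follows. BL-41 and Jiyoye differed for 4 of 9 genes (HLA-B, TAP2, TAPBP and NLRC5), against 6.25% of genes tested. Namalwa and Jiyoye differed for 2 of 9 (TAPBP and NLRC5) against 2.75%, and BL-41 and Namalwa for 1 of 9 (HLA-E) against 7.01%. Among genes whose mean reached 100 in both lines, the shares for these pairs were 8.15%, 3.57% and 9.36%. The 1 of 9 for BL-41 and Namalwa thus lies near the background. Spread over the 3 lines, by Cochran's Q, was called for 5 of 9 genes against 11.3% of all genes and 14.4% of those whose mean reached 100 in every line. These 5 were TAPBP (adjusted p = 1.6e-07), NLRC5 (0.0121), HLA-B (0.0163), HLA-E (0.0336) and TAP2 (0.0478). Only HLA-B and HLA-E had the same sign in all 3 lines, and 0 of 9 genes were called in all 3. The inverse-variance mean over lines was -0.30 (SE 0.07, adjusted p = 8.12e-05) for HLA-B, below 0 in 3 of 3 lines. For HLA-E it was -0.35 (SE 0.08, adjusted p = 2.93e-05), also below 0 in 3 of 3 lines, and without Namalwa it was -0.18 and not called (adjusted p = 0.130). For TAP1 it was 0.17 (SE 0.07, adjusted p = 0.0385), above 0 in 2 of 3 lines, and it was not called without BL-41 (0.18, adjusted p = 0.112) or without Jiyoye (0.06, adjusted p = 0.705). By that mean 18.7% of all genes were called higher and 19% lower, and 48.6% of those whose mean reached 100 in every line were called, so 3 of 9 lies below the share in well-expressed genes. With random effects, which allow for the spread between lines, none of the 3 means was called, with an adjusted p of 0.157 for HLA-B, 0.162 for HLA-E and 0.396 for TAP1.

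Genes of the interferon and NF-kB pathways were examined as a list of 16, which holds activators and also inhibitors such as SOCS1. In Jiyoye, 7 of 16 rose, 2 fell and 7 were not called. Over all genes in Jiyoye 8.69% rose and 8.7% fell, and among those whose mean reached 100 the shares were 12.7% and 12.8%. The median log2 fold change was 0.13, beside 0.01 over all genes. IRF9, the DNA-binding subunit of the type I interferon response complex, was at 1186 with FOXO3 shRNA and 576.4 with scrambled shRNA in the authors' deposited table, a log2 fold change of 1.04 (adjusted p = 3.07e-12, DESeq2). IFNAR2, a chain of the type I interferon receptor, and IRF1, a direct activator of class I promoters, rose by 0.64 and 0.62 (the authors' deposited table, DESeq2, adjusted p = 3.27e-05 and 0.000117). STAT2 fell by 0.48 (the authors' deposited table, DESeq2, adjusted p = 0.00247), so the members of this list did not move one way. SOCS1, a feedback inhibitor of JAK and STAT signals, is among the 7 that rose, by 0.58 (the authors' deposited table, DESeq2, adjusted p = 0.021).

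In BL-41, 4 of the 16 pathway genes rose, 3 fell and 9 were not called, with a median of 0.06. Among BL-41 genes whose mean reached 100, 20% rose and 20.7% fell, so these counts lie near the background. IRF8, an interferon regulatory factor of B cells, fell by 0.91, and IRF9 and RELA, a subunit of NF-kB, rose by 0.68 and 0.60 (the authors' deposited table, DESeq2, adjusted p from 9.84e-08 to 0.000468). In Namalwa 15 of the 16 were not called, 0 rose (1 was higher at an unadjusted p under 0.05), and the 1 that fell was STAT2 (-0.51 by DESeq2 in the authors' deposited table, adjusted p = 8.12e-05). Among Namalwa genes whose mean reached 100, 3.85% rose and 5.76% fell. IRF9 differed for Namalwa minus Jiyoye (-0.96, adjusted p = 5.87e-05). IRF1 differed for BL-41 minus Jiyoye (-0.80, adjusted p = 0.000838).

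The list of MHC enhanceosome factors holds the RFX, NF-Y and CREB/ATF subunits and CIITA, the class II counterpart of NLRC5. Of these 9, 0 rose and 3 fell in BL-41 (1 was higher at an unadjusted p under 0.05, DESeq2), beside 20.7% of BL-41 genes whose mean reached 100 that fell. The 3 were RFX5, RFXANK and NFYA, for which the authors' deposited table gives log2 fold changes of -0.40, -0.36 and -0.40 (DESeq2 adjusted p between 0.00692 and 0.0439). In Jiyoye 0 rose (1 at an unadjusted p under 0.05) and 2 fell, NFYA by 0.92 and RFXAP by 0.54 (the authors' deposited table, DESeq2, adjusted p = 3.62e-05 and 0.0137). In Namalwa 0 of 9 were called in either direction (0 higher and 2 lower at an unadjusted p under 0.05, DESeq2). Among genes whose mean reached 100, 12.8% fell in Jiyoye and 5.76% in Namalwa. CIITA was called in no line, at -0.12, -0.01 and -0.06 in BL-41, Namalwa and Jiyoye in the authors' deposited table.

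Genes of peptide supply and quality control were also read as lists. Of 8 genes of the immunoproteasome and peptide trimming, 1 rose and 3 fell in BL-41, 0 rose (1 at an unadjusted p under 0.05) and 1 fell in Namalwa, and 1 rose and 1 fell in Jiyoye. For Namalwa, 3.85% of genes whose mean reached 100 rose and 5.76% fell, and the shares for the other lines are those given above. ERAP1, which trims peptides in the endoplasmic reticulum, fell in all 3 lines, by 0.98, 0.43 and 0.50 in BL-41, Namalwa and Jiyoye (the authors' deposited table, DESeq2, adjusted p from 6.35e-10 to 0.00449). ERAP2, its partner in trimming, rose in Jiyoye by 0.57 (the authors' deposited table, DESeq2, adjusted p = 0.000424) and was not called in BL-41 (0.24) or Namalwa (0.36). PSMB9, the divergent neighbour of TAP1, was at 174.1 with FOXO3 shRNA and 270.8 with scrambled shRNA in BL-41 in the authors' deposited table, a log2 fold change of -0.64 (adjusted p = 0.00667, DESeq2), while TAP1 there was at 0.14. In Jiyoye, where TAP1 rose, PSMB9 was at -0.20 in log2 units in the authors' deposited table and was not called (adjusted p = 0.488, DESeq2). PSMB8, which lies between TAP2 and TAP1, was called in no line, with -0.34, 0.06 and -0.12 in BL-41, Namalwa and Jiyoye in the authors' deposited table. In BL-41 PSMB8 missed the threshold by a small margin (adjusted p = 0.0529, DESeq2). Of 8 genes in the list of loading chaperones, 2 fell in Jiyoye, where TAPBP rose. These were the lectin chaperones CANX and CALR, by 0.46 and 0.41 (the authors' deposited table, DESeq2, adjusted p = 0.0374 and 0.0424). Among genes whose mean reached 100, 12.8% fell and 12.7% rose in Jiyoye, and 20% rose in BL-41. In Namalwa 0 of the 8 were called (2 higher and 0 lower at an unadjusted p under 0.05, DESeq2). SPPL3, a protease that remodels glycan-modifying enzymes and thereby access to class I, was the 1 chaperone-list gene that rose in Jiyoye (0.46) and in BL-41 (0.86) (the authors' deposited table, DESeq2, adjusted p = 0.00104 and 1.51e-08).

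Of 6 genes known to lower class I, 3 rose in BL-41, against 14.5% of all genes there and 20% of those whose mean reached 100. SUSD6, TMEM127 and WWP2, which together send class I molecules to lysosomes, rose by 0.63, 0.57 and 0.51 (the authors' deposited table, DESeq2, adjusted p from 9.69e-05 to 0.00226). With the PRC2 subunits EZH2, EED and SUZ12 they form the list of 6, of which 0 fell in BL-41 (1 was lower at an unadjusted p under 0.05, DESeq2). EZH2, EED and SUZ12 were not called there, at -0.28, 0.34 and -0.04 in log2 units in the authors' deposited table. In Jiyoye 1 of 6 rose (TMEM127, 0.45 by DESeq2 in the authors' deposited table, adjusted p = 0.00578) and in Namalwa 0 were called (2 higher and 0 lower at an unadjusted p under 0.05, DESeq2). Of Jiyoye genes whose mean reached 100, 12.7% rose. Stress ligands for the NKG2D receptor of natural killer cells, MICA, ULBP2 and ULBP3, rose by 0.69, 0.66 and 0.75 in BL-41 (the authors' deposited table, DESeq2, adjusted p from 0.00133 to 0.0206). They belong to a list of 15 class I-like genes of which 14 were measured in BL-41, where 3 rose and 2 fell. Over all genes in BL-41 14.5% rose and 14.2% fell, so these counts lie near the background. The falls were CD1D, which presents lipids, by 0.81 and MR1, which presents vitamin B metabolites, by 0.31 (the authors' deposited table, DESeq2, adjusted p = 2.59e-05 and 0.036). The NKG2D ligands ULBP1 and MICB were not called in BL-41, at -0.34 and 0.21 in log2 units in the authors' deposited table. Class II genes, examined for comparison, fell in 12 of 12 cases in BL-41 with a median log2 fold change of -1.04, beside -0.19 for the class I genes. Among BL-41 genes whose mean reached 100, 20.7% fell. Namalwa had 3 of 12 class II genes called lower, against 5.76% of its genes whose mean reached 100. All 12 lay below 0 there, and 7 were lower at an unadjusted p under 0.05 (DESeq2). Jiyoye had 2 of 12 called lower, beside 12.8% of its genes whose mean reached 100. There 7 of 12 lay below 0, with 3 lower and 1 higher at an unadjusted p under 0.05 (DESeq2).

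**Figure D4:**
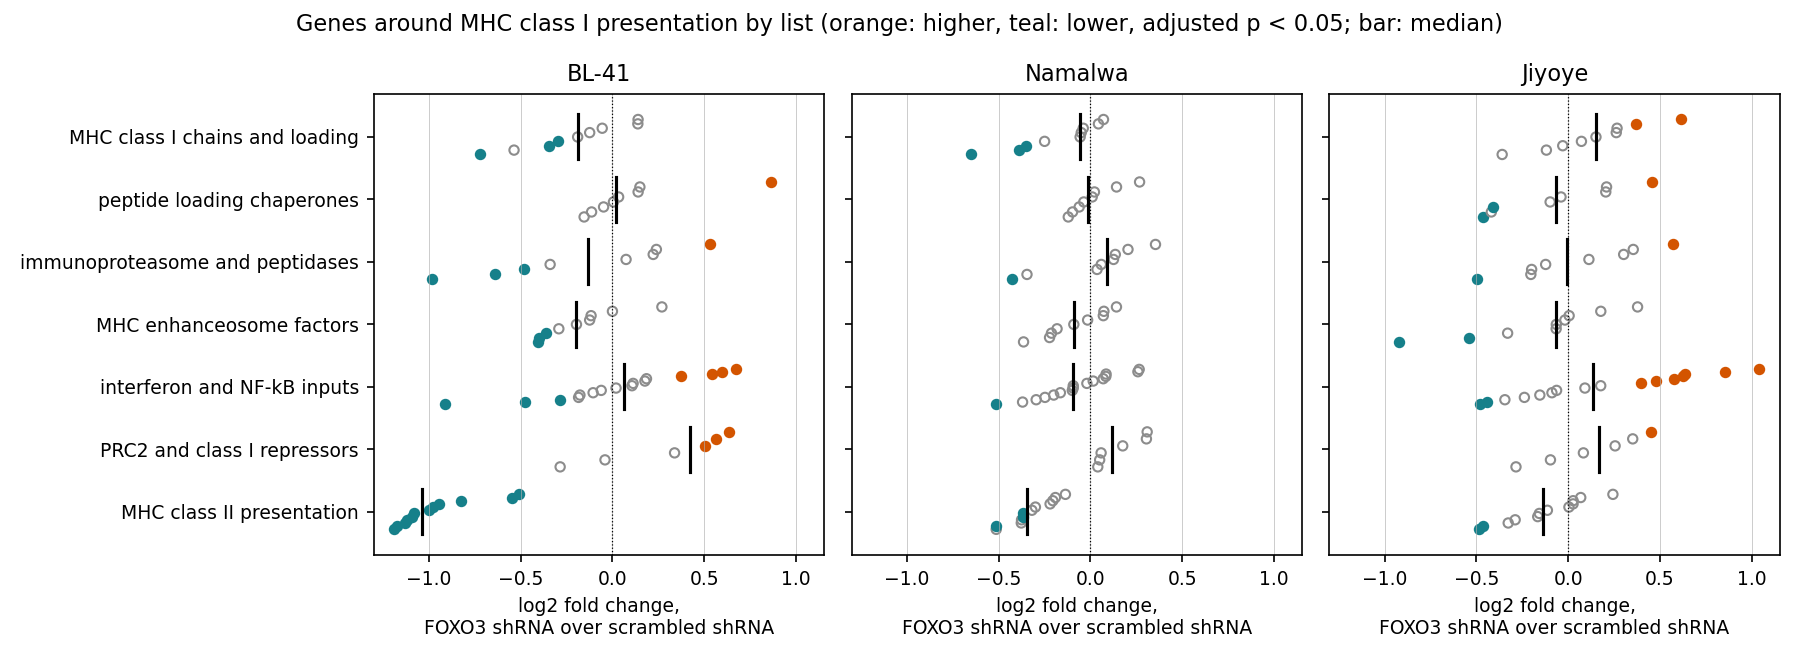
Log2 fold change of FOXO3 shRNA over scrambled shRNA for genes of 7 lists around class I presentation in each line (each point a gene, filled where DESeq2 called it, orange higher and teal lower, black bar the list median). The interferon and NF-kB inputs hold 7 genes called higher in Jiyoye, and the class II genes lie lowest in BL-41.

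Markers of other cell types were also read. Of 6 myeloid markers in BL-41, 2 rose, LYZ and CD14, and the summed arm values were 159.2 with FOXO3 shRNA and 61.6 with scrambled shRNA in the authors' deposited table. Over all genes 14.5% rose in BL-41 and 8.69% in Jiyoye. In Jiyoye 1 of 5 measured myeloid markers rose (CD14), with sums of 297.2 with FOXO3 shRNA and 226.9 with scrambled shRNA, and in Namalwa 0 of 5 were called (0 at an unadjusted p under 0.05, DESeq2), with sums of 150.8 with FOXO3 shRNA and 153.1 with scrambled shRNA in the authors' deposited table. Of the 5 natural killer cell markers, the granule gene PRF1 rose in Jiyoye (1258 with FOXO3 shRNA and 862.5 with scrambled shRNA) and fell in BL-41 (76.9 with FOXO3 shRNA and 133 with scrambled shRNA) in the authors' deposited table. The adjusted p by DESeq2 was 3.03e-05 in Jiyoye and 0.0017 in BL-41, where 14.2% of all genes fell. The other 4 were not called in either line. In Namalwa 0 of the 5 were called (0 at an unadjusted p under 0.05, DESeq2). MPO, a defining myeloid marker, had values under 1 in both arms of BL-41. Of the T cell and of the fibroblast or epithelial markers, 0 were called in any line (1 T cell marker was higher in Jiyoye at an unadjusted p under 0.05, DESeq2). Their summed arm values were at most 76.2 and 304.3 with FOXO3 shRNA, against at most 49.4 and 369 with scrambled shRNA. The part of these markers in the class I values was not tested.

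The genes whose 3 fold changes lay nearest to those of TAPBP, among 8869 others whose mean reached 100 in every line, included P2RX5 and ABCA2, at Euclidean distances of 0.118 and 0.125 on the log2 scale. P2RX5, an ATP-gated channel, stood at -0.11 for BL-41, -0.39 for Namalwa and 0.50 for Jiyoye in the authors' deposited table. For HLA-E the nearest genes were CCNG2, UHMK1 and VCL, at distances of 0.144, 0.146 and 0.159. CCNG2, a cyclin that is a known FOXO target, stood at -0.0095 for BL-41, -0.51 for Namalwa and -0.34 for Jiyoye in the authors' deposited table. These are likenesses over 3 values and carry no test.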

How the data were processed

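Messenger RNA of 18 libraries in 6 groups was compared, 3 libraries with FOXO3 shRNA and 3 with scrambled shRNA in each of 3 lines. Oligo-dT enrichment is given in the labels' protocols, SOAPnuke filtering in the series' design text. The submitters' processing notes name Bowtie2, RSEM, DESeq2 and hg38; versions are not given in the sources used here. The authors deposited 1 normalized signal value per arm, a log2 fold change equal to the ratio of the arms, and p-values and adjusted p-values. The arm values may be moderated rather than plain means of libraries, which was not tested. Fold changes and recovered SE may then be too small, above all at low values, and the z tests rest on them. In Namalwa, CD1A was at 0.168 with FOXO3 shRNA and 0.161 with scrambled shRNA, yet its recovered SE was 0.116. The median SE of Namalwa genes whose mean reached 100 was 0.127. Values per library were not analysed here, so depth per library is unknown here, no count test was run, and precision is that of the SE.

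Calls are the authors' own (DESeq2). Dividing a fold change by the normal quantile that matches its p-value gave the SE. Differences between lines were tested by a two-sided z test and the mean over lines by inverse variance with Cochran's Q, each Benjamini-Hochberg adjusted over all genes in the tables concerned (14549 for the 3 lines). The z test and the mean were run on simulated fold changes drawn with the recovered SE, which cannot show whether those SE are right. Cochran's Q was not scored there. Recomputed adjusted p-values differed from the deposited ones by at most 3.56e-15. Named genes are the 9 class I genes, FOXO3, PSMB8, PSMB9, up to 4 called genes with the smallest adjusted p per list and line, genes called alike in 3 lines, and the 3 nearest genes by fold change to each of 2 class I genes. CIITA, EZH2, EED, SUZ12, MPO, SOCS1, ULBP1, MICB and CD1A, STAT2 in Jiyoye and MR1 in BL-41 are outside that rule and were chosen after their values were seen. Some genes that the rule names are not reported here. Alternatives were stricter thresholds, centring, a minimum mean, random effects and leaving out a line. The members, lists and motifs were chosen with earlier results of these data known. Positions and promoters are from RefSeq (GRCh38.p14). Computations ran in Python 3.11.15 with scipy 1.17.1, pandas 2.3.3, numpy 2.4.6, Biopython 1.88 and matplotlib 3.10.9.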

Additional observations from a re-analysis of the deposited data

Results flagged for a closer look

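Fold changes of 5 class I genes differed between lines by the z test of the difference, adjusted over all genes. BL-41 minus Jiyoye was -0.69 for HLA-B, -0.56 for TAP2, -0.74 for TAPBP and -0.61 for NLRC5. Namalwa minus Jiyoye was -0.97 for TAPBP and -0.51 for NLRC5. BL-41 minus Namalwa was 0.59 for HLA-E. Of all genes tested, 6.25% differed for BL-41 minus Jiyoye, 2.75% for Namalwa minus Jiyoye and 7.01% for BL-41 minus Namalwa. Among genes whose mean reached 100 in both lines these shares were 8.15%, 3.57% and 9.36%. The 1 of 9 for BL-41 minus Namalwa lies near the background. FOXO3 itself stood at -0.79 (BL-41), -1.09 (Namalwa) and -0.30 (Jiyoye) in log2 units in the authors' deposited table, and its part in these differences was not tested.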

How the results depend on the processing

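With an absolute log2 fold change of at least 1 as a further condition, 0 class I genes were called in BL-41, Namalwa and Jiyoye. With 0.58, the limit that parts the authors' Up and Down labels and an alternative chosen after seeing the data, 1 was called in each line (HLA-B, HLA-E and TAPBP). At an adjusted p under 0.01, 1 was called in BL-41, 2 in Namalwa, where TAPBP was lost (adjusted p = 0.0121), and 1 in Jiyoye. With random effects 0 means over the 3 lines were called. Leaving a line out turned 4 means that were not called. Without BL-41 the mean was 0.028 for HLA-C and 0.17 for TAP2, without Namalwa it was 0.0039 for NLRC5, and without Jiyoye it was -0.25 for TAPBP, which was then called (adjusted p = 0.00433). TAPBP was called in the other direction without Namalwa (0.25, adjusted p = 0.00829), and NLRC5 was called without Jiyoye (-0.28, adjusted p = 0.00235). Centring on the median gene and a minimum mean of 100 kept direction and call for every class I gene they could be run on, as did adjustment over the 3 pairs together for the differences. HLA-F in Namalwa, under that minimum, has no filtered value. No paired analysis was possible because the tables hold no value per library, and leaving out single replicates was not run for the same reason. Low levels limit HLA-F in Namalwa, where the SE was 0.40.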
